A study of Mus musculus with 10 samples.

Results

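The enzymes, binding proteins and receptors of retinoic acid were followed in the E18.5 mouse anterior fontanelle (AF), the open fibrous field between the frontal bones. The members are 10 genes, picked by symbol from the 23080 genes of the deposited table: the retinaldehyde dehydrogenases *Aldh1a1*, *Aldh1a2* and *Aldh1a3*, the retinoic acid hydroxylases *Cyp26a1* and *Cyp26b1*, the cellular retinoic acid-binding proteins *Crabp1* and *Crabp2*, and the nuclear receptors *Rara*, *Rarb* and *Rarg*. All 10 were listed, and 9 passed the filter on low counts, *Cyp26a1* being left out of the test. Bulk RNA-seq libraries numbered 5 for WT and 5 for *Wnt1-Cre; Fgfr2fl/fl* embryos, in which the receptor gene *Fgfr2* is targeted in neural crest derivatives. No other agent or allele is given for either group. The excised region held suture connective tissue and bone, with skin and brain left out in the dissection. *Wnt1-Cre* acts in the neural crest lineage, so vessels, blood cells and other tissue of another origin are not targeted. The study calls the groups littermate pairs, but no label says which libraries share a litter, so the comparison leaves litter out. Pooling of embryos was not stated, and p-values measure the spread between these libraries.

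Retinoic acid is made from vitamin A. Retinol is oxidized to retinaldehyde, retinaldehyde dehydrogenases turn that into retinoic acid, and CYP26 enzymes hydroxylate retinoic acid and so clear it. Retinoic acid binds RAR receptors, which sit on DNA as heterodimers with RXR receptors, and some RAR targets, *Rarb* and *Cyp26a1* among them, belong to the pathway itself. In the skull vault, excess retinoic acid and loss of CYP26B1 are both known to disturb the sutures.

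Total counts ran from 20774667 to 28515434 per library, of which 15317722 to 20480153 were not ribosomal RNA. The targeted gene was measured first. *Fgfr2* was at 199.5 ± 21.7 CPM in libraries labelled WT and 318 ± 32.8 CPM in libraries labelled knockout (SD, n = 5 each; CPM, counts scaled to library size by TMM), 5 of 5 knockout-labelled libraries being above every other, so the total count went against the genotype. A gene-level count sums recombined and intact transcripts and so does not check the deletion. Groups are named WT-labelled and KO-labelled, and every direction given is that of the labels. Bone and fibrous tissue were both present by their markers. The 10 osteoblast markers summed to 66154 to 77777 CPM in WT-labelled and to 54126 to 78494 CPM in KO-labelled libraries. These sums were made up mostly of *Col1a1*, at 66247 and 64070 CPM on average. All 10 markers were lower by fold change, 6 of them at an unadjusted p under 0.05 (edgeR). The 6 markers of tendon-like fontanelle connective tissue summed to 396 to 459 and to 467 to 637 CPM, 4 being higher at that threshold. Both counts stand beside 3.82% of all genes tested that were lower and 3.68% that were higher, and 0 markers of either list passed after adjustment. Of tissue outside the dissection, the 8 epidermis markers listed summed to 6.12 to 14.8 CPM over all 10 libraries, whereas the 10 neuron markers summed to 86.9 to 203 CPM in WT-labelled and 92.0 to 630.4 CPM in KO-labelled libraries, with the highest value in KO-labelled replicate 2. The 8 skeletal muscle markers summed to 793 CPM in WT-labelled replicate 2 and 774 CPM in KO-labelled replicate 1, and to 19.2 to 155 CPM in the other 8 libraries. The part of these differences in the values of the members was not tested.

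Sequence upstream of the members shows which of them carry the classic element through which RARs act. In RefSeq windows of 300 bases (250 before to 50 after a start, GRCm38.p6), 8 of the 10 members had an entry, 13 windows in all. Each window was searched on both strands for a direct repeat of the 6-base motif AGGTCA, with the letters GGGTCA or the letters AGTTCA or the letters GGTTCA accepted for either copy and with 1, 2 or 5 bases between the copies. *Rarb* and *Cyp26a1* held a repeat with a spacer of 5 bases, and no other window of a member held any of the 3 kinds. Of 32851 such windows over all genes, 0.0974% held a repeat with a spacer of 5, and 0.588% held any of the 3. The *Rarb* repeat lies on the gene's strand 53 to 37 bases before a start that is inside the gene (chr14:16575513-16575529). The *Cyp26a1* repeat lies on the strand opposite to the gene, so that it appears there as its reverse complement, 32 to 16 bases before the RefSeq start (chr19:37697776-37697792). The 100 bases before each start are given with the repeat copies in capitals, since these are the members whose transcription is a textbook readout of the pathway. They are printed 5′ to 3′ on the gene's strand, minus for *Rarb* (chr14:16575477-16575576) and plus for *Cyp26a1* (chr19:37697708-37697807).
Rarb: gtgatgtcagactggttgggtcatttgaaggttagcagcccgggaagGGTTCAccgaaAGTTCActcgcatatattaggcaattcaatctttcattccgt
Cyp26a1: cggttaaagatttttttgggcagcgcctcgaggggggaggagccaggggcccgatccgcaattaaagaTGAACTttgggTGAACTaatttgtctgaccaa
A match is a description of these letters and not evidence of binding in this tissue.

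Of the members, the receptor genes *Rarg* and *Rara* gave the most abundant transcripts per exon length. In WT-labelled libraries *Rarg* stood at 40.7 ± 1.86 CPM per kb of exon, higher than 94.9% of the 15991 genes tested that had an exon length, and *Rara* at 14.6 ± 0.681 CPM per kb (SD, n = 5). Below them came *Crabp2* at 8.08 ± 1.40, *Crabp1* at 7.51 ± 1.90, *Aldh1a2* at 7.42 ± 1.56 and *Cyp26b1* at 7.04 ± 1.89 CPM per kb. The ranges of these 4 genes overlapped, so their order was not resolved. *Aldh1a3* at 2.60 ± 0.625 and *Rarb* at 2.43 ± 0.178 CPM per kb likewise overlapped, and both lay above *Aldh1a1* at 0.869 ± 0.184 CPM per kb. *Cyp26a1* was last, at 0.0578 ± 0.0634 CPM per kb. The fontanelle thus held transcripts of one abundant hydroxylase, *Cyp26b1*, beside an almost undetected one, and of *Aldh1a2* more than of the other retinaldehyde dehydrogenases.

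**Figure D1:**
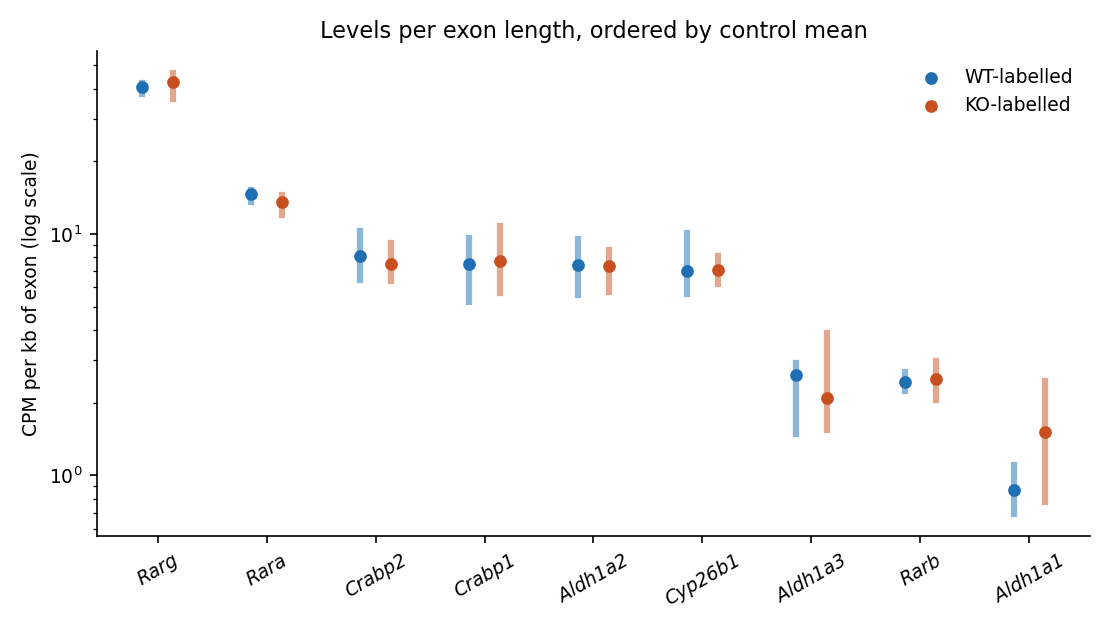
Level of 9 members in CPM per kb of exon (log axis), ordered by the WT-labelled mean; points are means and bars run from the lowest to the highest of 5 libraries. *Rarg* and *Rara* stand above all other members in both groups, and *Cyp26a1*, at 0 in a library, is not drawn.

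Between the groups, no member passed an adjusted p-value of 0.05 (edgeR's quasi-likelihood test with Benjamini-Hochberg adjustment over 16267 genes; 3 genes, 0.0184% of those tested, passed). At an unadjusted p-value under 0.05, 1 of the 9 members tested differed by the same test, *Aldh1a1*, beside 7.49% of all genes tested. DESeq2's Wald test likewise called 0 members after adjustment and 1 before it. In none of the 10 members did the groups stand apart, against 1.48% of all genes tested. The median log2 fold change of the 9 members was 0.0080, beside 0.00073 over all genes tested, with 5 members higher and 4 lower. In bulk tissue, fewer cells of a type and less RNA per cell cannot be told apart.

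**Figure D2:**
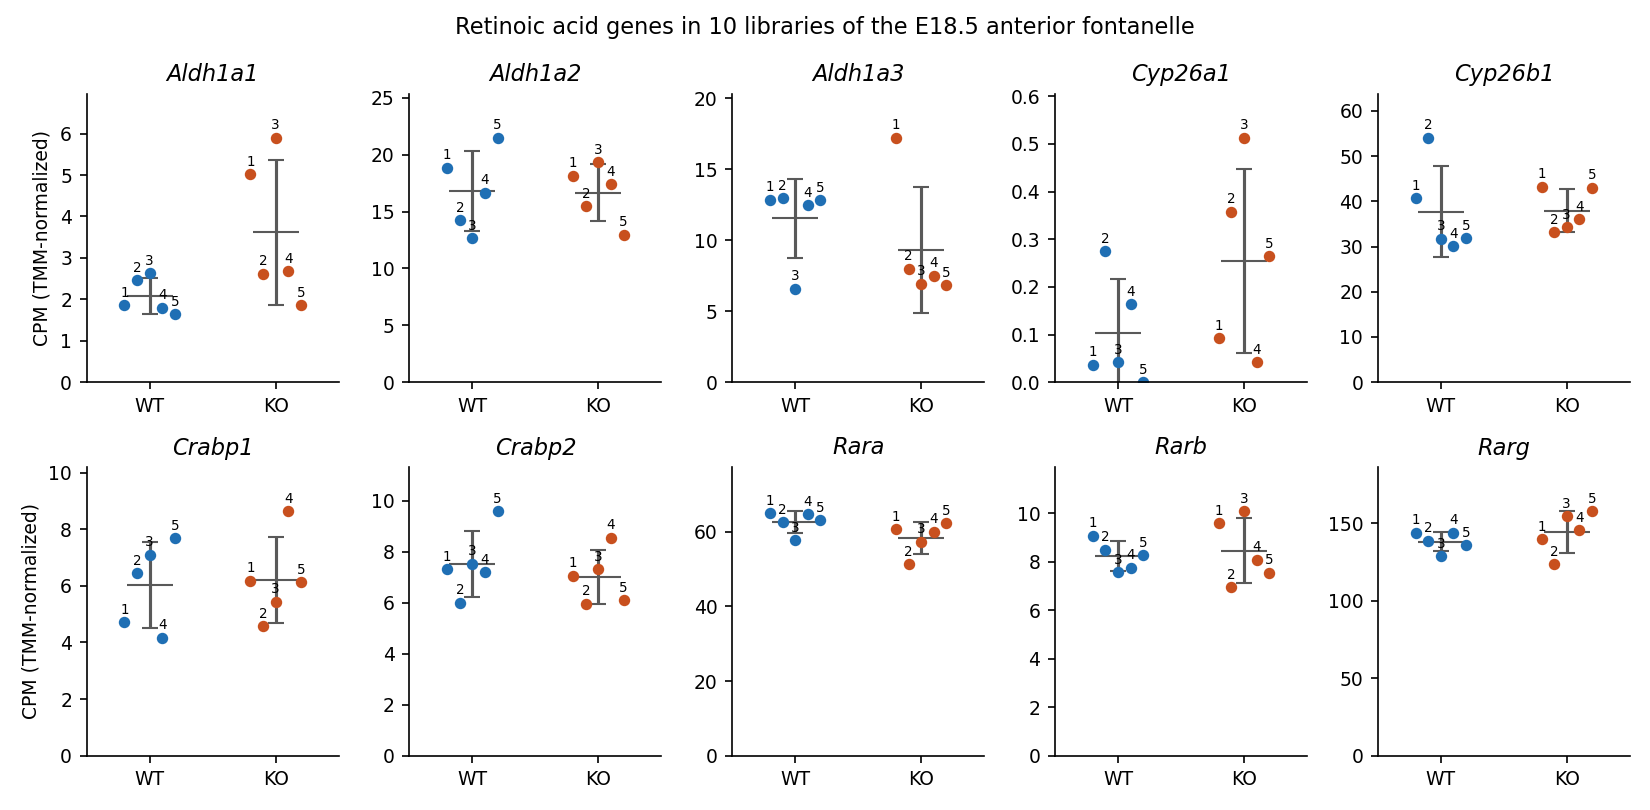
CPM of the 10 members in each library, WT-labelled in blue and KO-labelled in orange, with replicate numbers beside the points; horizontal lines are means and bars the SD (n = 5), cut at 0 for *Cyp26a1*. The groups overlap in every panel, and *Aldh1a3* shows 1 library far from the rest in each group.

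*Aldh1a1*, the cytosolic retinaldehyde dehydrogenase known from the retina and liver, had the largest fitted difference of the 9 members that passed the filter. It was at 1.85, 2.47, 2.64, 1.80 and 1.65 CPM in WT-labelled replicates 1 to 5 and at 5.02, 2.62, 5.91, 2.68 and 1.85 CPM in KO-labelled replicates 1 to 5. KO-labelled replicates 1 and 3 were high, replicate 4 was just above the highest WT-labelled library, and replicates 2 and 5 lay within the WT-labelled range. The log2 fold change was 0.79 (standard error 0.305, 95% interval 0.13 to 1.46, adjusted p = 0.631 by edgeR's quasi-likelihood fit), with an unadjusted p of 0.0237 from that test and 0.0556 when log2 CPM was permuted exactly between groups (two-sided). Leaving out KO-labelled replicate 3 gave 0.55 (unadjusted p = 0.0744 by edgeR). The unadjusted p was also above 0.05 without KO-labelled replicate 1 (0.0608), WT-labelled replicate 4 (0.0502) or WT-labelled replicate 5 (0.0520), where the log2 fold change was 0.66, 0.75 and 0.73. Depth was low for this gene, at 39 to 138 counts in a library. Several of the deposited counts of *Aldh1a1* are fractional, and the neighbouring paralog *Aldh1a7* on chromosome 19 also had fractional counts, so the split between them is uncertain. *Aldh1a7* was at 0.733 ± 0.430 and 0.566 ± 0.234 CPM, and the sum of both genes was 2.81 ± 0.807 CPM in WT-labelled and 4.18 ± 1.86 CPM in KO-labelled libraries (SD, n = 5 each), with ranges of 2.19 to 3.91 and 2.34 to 6.38 CPM that overlapped. *Aldh1a1* spans chr19:20492715-20643465 on the plus strand.

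*Aldh1a2*, the main retinoic acid-synthesizing enzyme of the early embryo and an enzyme of the meninges, gave nearly the same level in both groups. WT-labelled replicates 1 to 5 had 18.9, 14.2, 12.7, 16.7 and 21.5 CPM, and KO-labelled replicates 1 to 5 had 18.2, 15.5, 19.3, 17.4 and 12.98 CPM. All KO-labelled libraries lay within the WT-labelled range, and the fitted log2 fold change was −0.010 (95% interval −0.33 to 0.31, adjusted p = 0.993 by edgeR's quasi-likelihood fit). *Aldh1a2* spans chr9:71215789-71296243 on the plus strand. Beside it, the 12 meninges markers listed summed to 824 to 1032 CPM in WT-labelled and 811 to 1066 CPM in KO-labelled libraries, and 0 of the 12 had an unadjusted p under 0.05 in either direction by the same test. The 8 endothelium markers summed to 510 to 650.3 and to 535 to 652 CPM. Over the 10 libraries, which share their depth, log2 CPM of *Aldh1a2* followed the mean of the endothelium list (Pearson's r = 0.79) more closely than that of the meninges list (r = 0.53), as a description with no test.

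*Aldh1a3*, the retinaldehyde dehydrogenase of nasal, ocular and skin tissues, fell into high and low libraries, with 1 library in each group standing apart from the others of its label. WT-labelled replicates 1, 2, 4 and 5 were at 12.9, 12.97, 12.5 and 12.8 CPM, and replicate 3 was at 6.59 CPM. KO-labelled replicates 2 to 5 were at 7.99, 6.93, 7.49 and 6.84 CPM, and replicate 1 was at 17.2 CPM. Thus 4 WT-labelled and 1 KO-labelled library were above 12 CPM, and the other 5 were below 8 CPM. As a log2 fold change this was −0.32 (95% interval −0.91 to 0.28, unadjusted p = 0.273 and adjusted p = 0.826 edgeR's quasi-likelihood fit; p = 0.206 in an exact permutation test). Without KO-labelled replicate 1 it was −0.65 (unadjusted p = 0.00478, adjusted p = 0.518 by the same test). *Aldh1a3* spans chr7:66390890-66427517 on the minus strand.

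Among all genes tested with a mean of at least 1 CPM, those whose log2 CPM followed *Aldh1a3* most closely over the 10 libraries were *Tmem100* (Pearson's r = 0.969), *Clec3b* (r = 0.941) and *Efhd1* (r = 0.928), given as a ranking with no test. *Clec3b*, which encodes tetranectin, is the marker the study uses for hypodermis, the layer under the skin. It was at 10.7, 13.8, 2.13, 8.22 and 7.35 CPM in WT-labelled replicates 1 to 5 and at 45.2, 3.10, 0.984, 4.17 and 1.501 CPM in KO-labelled replicates 1 to 5. The 5 libraries low in *Aldh1a3* were the 5 lowest in *Clec3b*, and KO-labelled replicate 1 was highest in both. Over the whole list of 10 hypodermis and dermal fibroblast markers, 9 were highest in KO-labelled replicate 1, and the list summed to 488 to 652 CPM in WT-labelled and 584 to 1061 CPM in KO-labelled libraries, a sum made up mostly of *Sfrp2* (415 and 608 CPM on average). The mean log2 CPM over the list, in which each marker weighs the same, was 4.04, 4.12, 3.18, 3.89 and 3.79 in WT-labelled replicates 1 to 5 and 5.33, 3.33, 3.05, 3.55 and 2.98 in KO-labelled replicates 1 to 5. By this measure too WT-labelled replicate 3 and KO-labelled replicates 2 to 5 were the lowest libraries. The part of these cells in the *Aldh1a3* values was not tested.

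**Figure D3:**
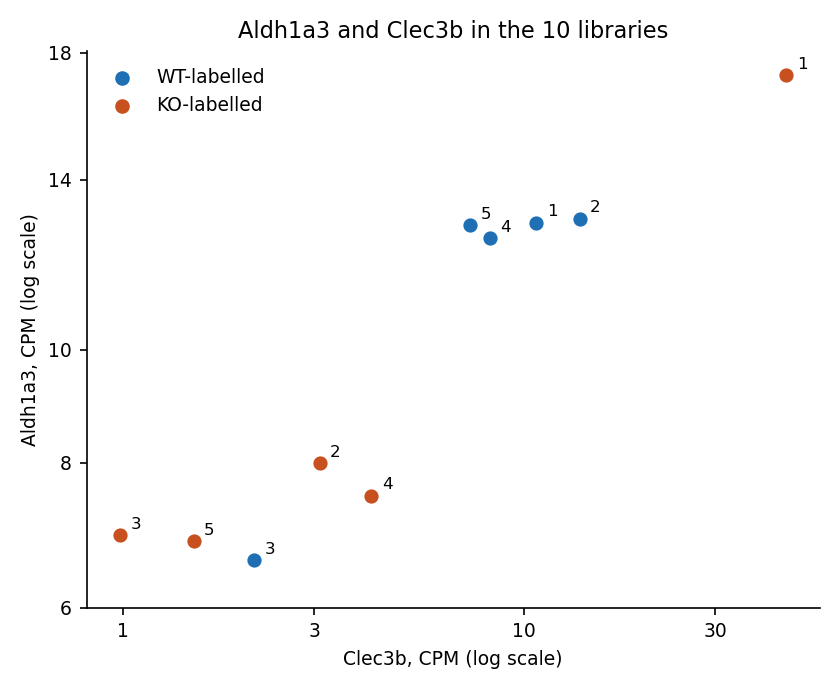
*Aldh1a3* against the hypodermis marker *Clec3b* in each library, in CPM on log axes, with replicate numbers beside the points. Libraries with *Aldh1a3* below 8 CPM have *Clec3b* at 4.17 CPM or less, and KO-labelled replicate 1, at 17.2 and 45.2 CPM, lies at the upper end of both.

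The hydroxylase *Cyp26b1*, which clears retinoic acid in skeletal and craniofacial mesenchyme, had nearly equal group means, 37.7 ± 10.1 and 37.97 ± 4.85 CPM (SD, n = 5 each). WT-labelled replicates 1 to 5 were at 40.7, 54.1, 31.7, 30.1 and 31.8 CPM, and KO-labelled replicates 1 to 5 at 43.3, 33.2, 34.3, 36.1 and 43.1 CPM. WT-labelled replicate 2 was the highest of all 10 and KO-labelled replicate 1 the next, and the KO-labelled libraries lay within the WT-labelled range. WT-labelled replicate 2 and KO-labelled replicate 1 were also highest in skeletal muscle markers. They were highest too in the mean log2 CPM of the tendon-like fontanelle markers, at 5.30 and 5.31. By the summed CPM of that list they were not, at 402 and 471 CPM, where KO-labelled replicate 3 was highest at 637 CPM. The part of either tissue in the *Cyp26b1* values was not tested. Its log2 fold change was 0.0080 (95% interval −0.33 to 0.35, adjusted p = 0.995 by edgeR's quasi-likelihood fit). *Cyp26b1* spans chr6:84571414-84593908 on the minus strand.

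*Cyp26a1*, the hydroxylase that retinoic acid induces most directly, was close to absent. Its counts were 1, 8, 1, 4 and 0 in WT-labelled replicates 1 to 5 and 2, 9, 12, 1 and 6 in KO-labelled replicates 1 to 5, or 14 and 30 counts in all. A count of 0 in a library allows up to 3 counts by sampling alone. With no filter on low counts its log2 fold change was 1.22 (95% interval −0.51 to 3.03, unadjusted p = 0.147, adjusted p = 0.792 by edgeR's quasi-likelihood fit), an interval that reaches from lower to higher levels. *Cyp26a1* spans chr19:37697798-37701536 on the plus strand. The related *Cyp26c1*, which lies beside it on chromosome 19, had 7 and 9 counts in all and was not tested.

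Set side by side within each library, the synthesizing *Aldh1a2* was below the clearing *Cyp26b1* on the log2 CPM scale, which is not per length, in all 10 libraries. The difference was −1.15 ± 0.52 in WT-labelled and −1.19 ± 0.34 in KO-labelled libraries (SD, n = 5 each). The groups overlapped, from −1.93 to −0.56 and from −1.73 to −0.82. Per kb of exon the order was not kept, with *Aldh1a2* at 7.42 and *Cyp26b1* at 7.04 CPM per kb in WT-labelled and 7.36 and 7.09 CPM per kb in KO-labelled libraries.

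Neither cellular binding protein passed the test. *Crabp1*, which binds retinoic acid in neural crest mesenchyme, was at 4.71, 6.45, 7.10, 4.17 and 7.69 CPM in WT-labelled replicates 1 to 5 and 6.18, 4.57, 5.44, 8.64 and 6.14 CPM in KO-labelled replicates 1 to 5. Its log2 fold change was 0.040 (95% interval −0.40 to 0.48, adjusted p = 0.976 by edgeR's quasi-likelihood fit). *Crabp2*, which carries retinoic acid to the receptors in the nucleus, was at 7.30, 6.003, 7.53, 7.19 and 9.59 CPM in WT-labelled and 7.06, 5.96, 7.32, 8.56 and 6.09 CPM in KO-labelled replicates 1 to 5, a log2 fold change of −0.10 (95% interval −0.41 to 0.20, adjusted p = 0.898 by the same test). Each gene varied over the 10 libraries by 2.07-fold (*Crabp1*) and 1.61-fold (*Crabp2*) from lowest to highest. *Crabp1* spans chr9:54764748-54773110 and *Crabp2* chr3:87948666-87953376, both on the plus strand.

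The receptors were the most even members, with a highest-to-lowest ratio over the 10 libraries of 1.27 for *Rara*, 1.28 for *Rarg* and 1.45 for *Rarb*. *Rarg*, the receptor typical of cartilage, bone and skin precursors, was at 144, 139, 129, 144 and 136 CPM in WT-labelled and at 139.8, 124, 154, 145 and 158 CPM in KO-labelled replicates 1 to 5. KO-labelled replicates 3, 4 and 5 lay above all WT-labelled libraries, and replicate 2 lay below them, for a log2 fold change of 0.062 (standard error 0.069, 95% interval −0.089 to 0.21, adjusted p = 0.872 by edgeR's quasi-likelihood fit). Without KO-labelled replicate 2 the value was 0.12 (unadjusted p = 0.0589 by edgeR). It was 0.027 without KO-labelled replicate 5 (unadjusted p = 0.706 by edgeR) and 0.017 with library size alone as scaling. *Rara*, the most widely expressed RAR, was at 65.1, 62.5, 57.8, 64.7 and 63.1 CPM in WT-labelled and 60.7, 51.2, 57.3, 60.0 and 62.2 CPM in KO-labelled replicates 1 to 5. All 5 KO-labelled libraries were below the WT-labelled mean, with KO-labelled replicates 2 and 3 below every WT-labelled library, for a log2 fold change of −0.10 (standard error 0.060, 95% interval −0.24 to 0.028, adjusted p = 0.718 by the same test; p = 0.0873 in an exact permutation test). Without KO-labelled replicate 2 this was −0.055 (unadjusted p = 0.311 by edgeR). That library had the highest sum of neuron markers, 630 CPM, and the part of this in the receptor values was not tested. *Rarg* spans chr15:102234938-102257517 on the minus strand and *Rara* chr11:98927818-98974942 on the plus strand.

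*Rarg* and *Rara* were also set against each other within each library. The log2 CPM of *Rarg* minus that of *Rara* was 1.15, 1.15, 1.16, 1.15 and 1.11 in WT-labelled and 1.20, 1.27, 1.43, 1.28 and 1.34 in KO-labelled replicates 1 to 5. The means were 1.14 ± 0.021 and 1.30 ± 0.086 (SD, n = 5 each), and the groups did not overlap. Of the 36 pairs that the 9 members tested can form, this was the 1 pair whose difference stood apart by label, or 2.78%, beside 1.48% of all pairs of genes tested. It was picked after its values were seen, so it is a description with no test. A difference within a library does not change with scaling between libraries.

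**Figure D4:**
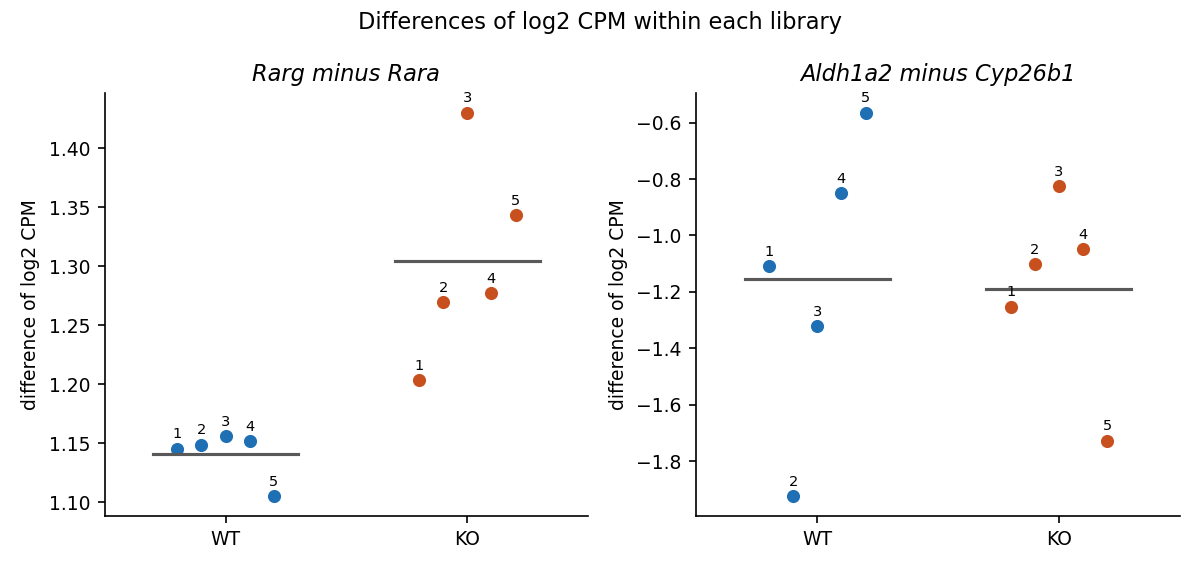
Difference of log2 CPM within each library for *Rarg* minus *Rara* (left) and *Aldh1a2* minus *Cyp26b1* (right), with group means as lines and replicate numbers beside the points. *Rarg* minus *Rara* runs from 1.11 to 1.16 in WT-labelled and from 1.20 to 1.43 in KO-labelled libraries, while *Aldh1a2* minus *Cyp26b1* overlaps between groups.

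*Rarb*, which is both a receptor and a target of retinoic acid, did not pass the test. WT-labelled replicates 1 to 5 were at 9.08, 8.51, 7.57, 7.77 and 8.28 CPM and KO-labelled replicates 1 to 5 at 9.61, 6.96, 10.1, 8.09 and 7.55 CPM. The KO-labelled libraries spread to both sides of the WT-labelled range. The log2 fold change was 0.037 (95% interval −0.21 to 0.28, adjusted p = 0.962 by edgeR's quasi-likelihood fit). *Rarb* spans chr14:16430839-16819156 on the minus strand, and 34.1% of its annotated exon bases are shared with *Top2b*, a DNA topoisomerase gene on the opposite strand. No source states whether counting used strand, so it is not known whether reads of *Rarb* and *Top2b* were told apart there. The deposited counts of *Rarb* were whole numbers in every library, and the part of *Top2b* reads in them was not tested. *Top2b* was at 110.3 ± 3.54 and 111 ± 5.30 CPM. Of the genes whose window holds the repeat with a spacer of 5 bases, 8 were tested, of which 1, *Gm1043* at 0.624 ± 0.385 and 1.75 ± 1.74 CPM, had an unadjusted p under 0.05 by edgeR and 0 passed after adjustment, beside 7.49% and 0.0184% of all genes tested.

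The rest of the pathway was read from a list of 79 genes, of which 70 were listed and 59 tested. By edgeR's quasi-likelihood test 0 passed an adjusted p of 0.05, and by DESeq2 also 0, with 8 at an unadjusted p under 0.05 by each tool. Of the 8 by edgeR, 4 were higher and 4 lower, beside 3.68% of all genes tested that were higher and 3.82% that were lower, and the median log2 fold change was 0.019. For retinol entry and storage, the plasma carrier *Rbp4* was at 12.9 ± 2.19 and 11.1 ± 1.40 CPM and the retinol receptor *Stra6* at 5.57 ± 1.78 and 5.74 ± 3.09 CPM (SD, n = 5 each, WT-labelled first). *Lrat*, which esterifies retinol, had 4 and 6 counts in all and was not tested. *Ttr*, the plasma partner of RBP4 and a product of the choroid plexus, was at 0.964 to 6.42 CPM in WT-labelled libraries and at 1.44, 87.7, 6.33, 11.4 and 6.89 CPM in KO-labelled replicates 1 to 5. Its log2 fold change of 2.56 was 0.76 without KO-labelled replicate 2 (unadjusted p = 0.193 by edgeR), the library highest in 8 of the 10 neuron markers, a movement whose part in the *Ttr* value was not tested beyond that.

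In the exchange of retinol and retinaldehyde, *Rdh10*, which oxidizes retinol in the embryo, was at 7.73 ± 0.851 and 8.00 ± 1.43 CPM, and *Dhrs3*, which reduces retinaldehyde back to retinol, at 37.1 ± 3.85 and 32.9 ± 4.61 CPM. The aldo-keto reductase genes *Akr1b3* and *Akr1b8* were lower by label at an unadjusted p under 0.05, where the edgeR adjusted p-values were 0.411 and 0.656. *Akr1b3* was at 24.1, 22.9, 27.5, 24.4 and 22.2 CPM in WT-labelled and 20.5, 18.6, 21.8, 21.5 and 19.0 CPM in KO-labelled replicates 1 to 5. It was the 1 gene of the 59 tested whose groups did not overlap (log2 fold change −0.25, standard error 0.071), or 1.69%, beside 1.48% of all genes tested. *Akr1b8* was at 3.96 ± 0.3498 and 3.07 ± 0.660 CPM (log2 fold change −0.37), and without KO-labelled replicate 2 it was −0.25 (unadjusted p = 0.0859).

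Of the 17 receptor partners and coregulators, 15 (88.2%) had a log2 fold change above 0, with a median of 0.055, beside 50.3% and a median of 0.00073 over all genes tested. The coactivator *Ncoa2* was at 48.2 ± 2.10 and 54.2 ± 6.18 CPM (log2 fold change 0.17, unadjusted p = 0.0447, adjusted p = 0.659 by edgeR). None of the RXR partners passed the test, with log2 fold changes of −0.076 for *Rxra* (95% interval −0.23 to 0.076), 0.00047 for *Rxrb* (−0.16 to 0.16) and 0.25 for the low *Rxrg*, whose interval was wide (−0.36 to 0.86). *Fabp5*, a fatty acid-binding protein that also binds retinoic acid, was at 20.9 ± 2.32 and 25.7 ± 7.79 CPM, with its highest value, 37.7 CPM, in KO-labelled replicate 2.

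Of 29 textbook RAR targets other than the members, 17 were tested, and their median log2 fold change was −0.0023. At an unadjusted p under 0.05 the homeobox gene *Meis2* was higher, at 11.7 ± 3.33 and 18.2 ± 6.08 CPM (log2 fold change 0.64, adjusted p = 0.580 by edgeR), and again highest in KO-labelled replicate 2, at 28.9 CPM. Without that library its log2 fold change was 0.42. The transglutaminase gene *Tgm2* was lower, at 70.1 ± 5.92 and 60.8 ± 5.01 CPM (−0.20, adjusted p = 0.571), and so was *Rarres1*, a retinoic acid-induced gene, at 2.38 ± 0.295 and 1.77 ± 0.276 CPM (−0.42, adjusted p = 0.634), and without KO-labelled replicate 2 its log2 fold change was −0.36 (unadjusted p = 0.0637 by edgeR). *Tgm2* shares 13.7% of its exon bases with *Gm20412* and 8.03% with *Rprd1b* on the opposite strand.

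**Figure D5:**
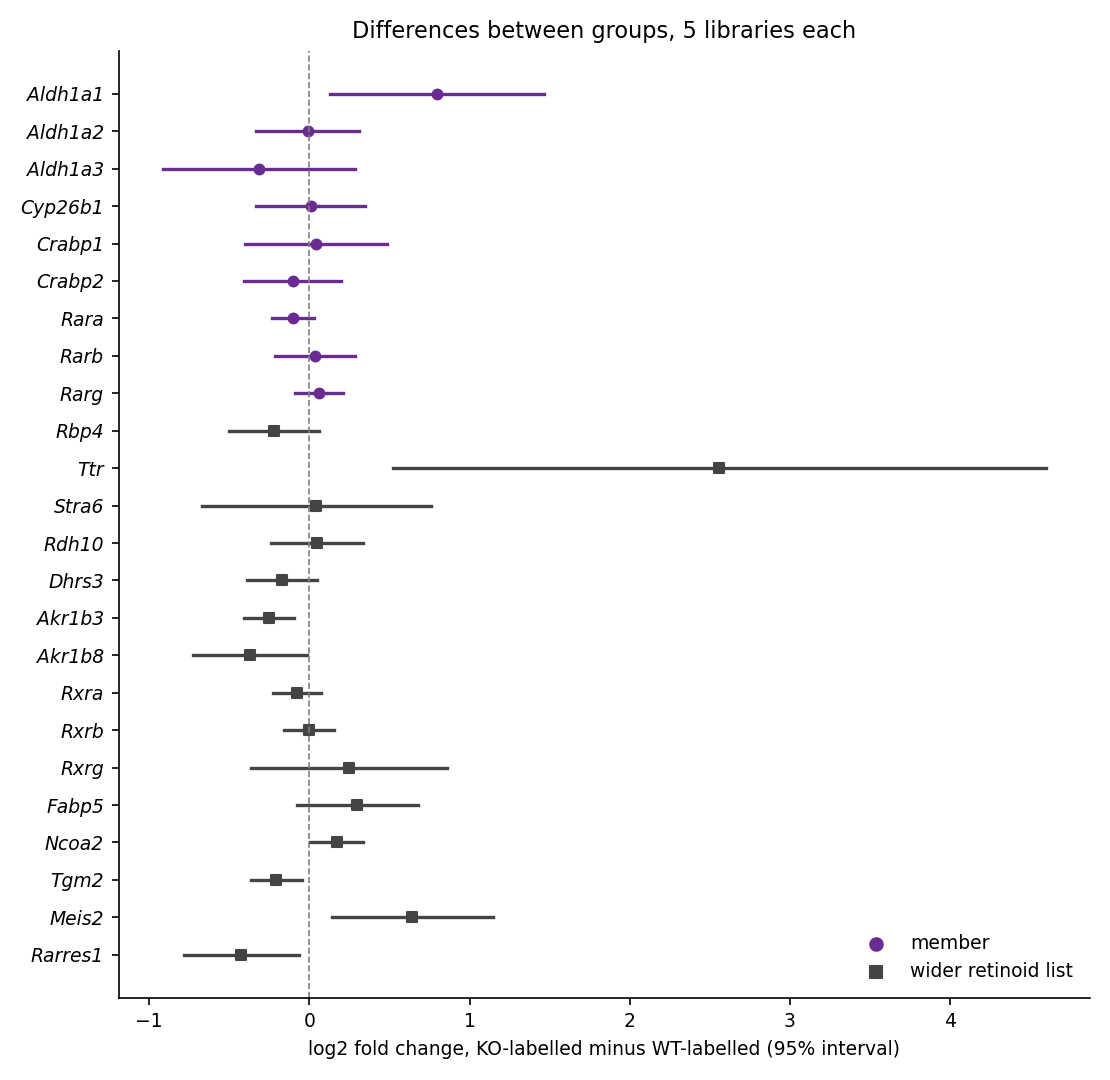
Log2 fold change, KO-labelled minus WT-labelled, for the 9 members tested (circles) and genes of the wider retinoid list named in the text that were tested, except *Aldh1a7* (squares). Lines are 95% intervals from edgeR's quasi-likelihood fit, and marks are their centres. Of the members, the interval of *Aldh1a1* alone, 0.13 to 1.46, lies off 0, and the interval of *Ttr* is the widest.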

How the data were processed

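RNA of the AF region was extracted with a Zymo kit, made into stranded libraries and sequenced as single-end reads of 50 bases. The authors deposited estimated counts by gene in a single table, not scaled between libraries, in which 67.18% of values were whole (within 1e-09) and no gene summed to less than 10. The submitters' processing notes name Partek and mm10, and the aligner, counting tool and strand setting are not given in the sources used here. Estimated counts were rounded, filtered by edgeR's expression filter (16267 genes tested, 6813 left out), scaled by TMM and compared over all 10 libraries, with no covariate and no term for litter, by edgeR's quasi-likelihood test (R 4.3.3, edgeR 4.0.16, limma 3.58.1, DESeq2 1.42.0) at a Benjamini-Hochberg adjusted threshold of 0.05. Standard errors are the unshrunk log2 coefficient over the root of its F statistic, so intervals are centred on that coefficient. Log2 CPM used a prior count of 0.5, which, like edgeR's own, shrinks low genes. Exact permutation tests were two-sided over 252 groupings. Exon lengths and positions are from GENCODE M21 (GRCm38), which gave the positions in the table for 22288 of the 22533 symbols found in it. Promoters are from RefSeq. Alternatives were other scalings, filters and tests, a replicate block, *Xist* as a covariate, no ribosomal RNA genes, and each library left out. Named genes are the 10 members, 12 preset genes of the wider list and those of it with an unadjusted p under 0.05, of which some are not reported here. For each member tested, the 3 most correlated genes were ranked by Pearson's r. The members and lists were chosen with earlier results of these data known.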

Additional observations from a re-analysis of the deposited data

Results flagged for a closer look

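In a check of log2 CPM of 30 named genes for a library far from the rest of its group, 4 of 60 groups of 5 libraries stood out, and chance gives about 1 in 20. For *Aldh1a3* there was a lone library in each group, WT-labelled replicate 3 at 6.59 CPM, where the next was at 12.5 CPM, and KO-labelled replicate 1 at 17.2 CPM, where the next was at 7.99 CPM. *Rxra* at 99.7 CPM and *Rxrb* at 33.3 CPM were lowest in WT-labelled replicate 5, where the next libraries were at 109 and 38.5 CPM. On the CPM scale, added after seeing the data, 5 groups stood out, both of *Aldh1a3* and that of *Rxrb* among them but not that of *Rxra*, and in addition *Ttr* at 87.7 CPM (next 11.4) and *Meis2* at 28.9 CPM (next 17.5) in KO-labelled replicate 2.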

How the results depend on the processing

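No member passed an adjusted p of 0.05 under any of 20 alternatives. *Aldh1a1* kept a positive log2 fold change under all 19 that refit it, with an unadjusted p of 0.00543 to 0.0744. Over all genes, 3 were called by edgeR, 1 with library size alone as scaling, 1 with the replicate block, 1 with *Xist* as a covariate, 97 by DESeq2's Wald test (56 higher and 41 lower), and 1 to 6 when 1 library was left out. Members at an unadjusted p under 0.05 numbered 1, but 0 by limma voom and 0 to 1 with a library left out. The wider list had 8 such genes, 5 with *Xist* as a covariate and 5 to 12 with a library left out, settings chosen after seeing the data for that list. Members near 0 changed sign. *Cyp26b1* was at −0.038 with library size alone, −0.013 with *Xist* as a covariate and −0.063 to 0.18 with a library left out. *Rarb* was at −0.012 with library size alone and −0.027 to 0.11 with a library left out. *Aldh1a2* was at 0.0020 with the replicate block and −0.086 to 0.10 with a library left out, *Crabp1* at −0.10 to 0.15, and *Crabp2* at −0.18 to 0.0055, the upper value without WT-labelled replicate 5. The cause was not tested. Equal replicate numbers gave no sign of marking the littermate pairs, since same-numbered libraries correlated at −0.21 to 0.14 in their deviations and 0 of 10 correlated best with their own number. *Cyp26a1* had only 0 to 12 counts per library.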

Other observations

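For each member tested, the genes with a mean of at least 1 CPM that followed it most closely in log2 CPM were ranked over the 10 libraries by Pearson's r, as a description with no test, and each set of points shares its libraries and their depth. For *Aldh1a1* these were *Mob3b* (0.930), *Cdk2* (0.924) and *Lama1* (0.920), and for *Aldh1a2* they were *Igsf11* (0.935), *Tspan18* (0.929) and *Abi3bp* (0.894). *Cyp26b1* was followed by *Arrdc3* (0.935), *Frem1* (0.933) and *Capn6* (0.930). The nearest to *Crabp1* were *Isy1* (0.887), *Mfsd13a* (0.881) and *Myo1h* (0.859), and those to *Crabp2* were *Gstm2* (0.915), *Slc10a3* (0.902) and *Gm16089* (0.902). Among the receptors, *Rara* was followed by *Csrp1* (0.964), *Itgb1* (0.932) and *Ckap4* (0.931), *Rarb* by *Asah2* (0.921), *Tns2* (0.918) and *Ctnnal1* (0.914), and *Rarg* by *Lrrc17* (0.929), *Erbin* (0.924) and *Clec11a* (0.921).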
